A study of Mus musculus with 6 samples.

Results

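The 43 cell cycle and proliferation genes described here were taken by symbol from the normalized-count and FPKM tables, and by Ensembl identifier from the raw-count table of 37187 genes. All 43 were found in the 3 tables and all 43 were abundant enough to be tested. They were divided by textbook role into 20 S phase genes, which act in the G1/S transition and in DNA replication, and 23 mitosis genes, which act from G2 to the end of cell division. RNA came from CD4+CD25+GITR+ cells sorted from tumour-draining lymph nodes of mice and labelled as regulatory T cells (Tregs). All mice had received 300000 B16.F10 melanoma cells under the skin, and nodes were taken at day 14. There were 3 libraries from C57BL6 mice (WT, replicates 1, 2 and 3) and 3 from il33-/- mice in a C57BL6 background (KO, replicates 4, 5 and 6). The gene encodes the cytokine IL-33 and the allele is carried by all cells of these mice. The sort did not use Foxp3, the factor that defines Tregs. The sources used here do not give the construction of the allele, whether the groups were littermates, or the age of the mice. Nothing states that each library came from a separate animal, so p-values measure only the spread between these libraries.

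A dividing cell copies its genome in S phase and separates the copies in mitosis, and transcripts for each step are made in waves. E2F factors switch on the genes of the G1/S transition and of replication, and a later wave driven by B-MYB and FOXM1 switches on the genes of mitosis, while in resting cells the DREAM complex holds both waves down. Tregs in lymph nodes include a resting population and an activated population that divides, and these transcripts are made mainly by the dividing cells. In bulk RNA, fewer dividing cells and less of the transcript in each dividing cell cannot be told apart.

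Textbooks link the earlier wave to E2F sites and the later wave to a pair of promoter elements, and the members' promoters were searched for short words of these. RefSeq promoters on GRCm38.p6 were matched by symbol for 36 of the 43 members, 17 of S phase and 19 of mitosis, and the 250 bases before the start were searched on both strands. Searched were the E2F words TTTCCCGC, TTTCGCGC, TTTGGCGC and TTTGCCGC, the cell cycle homology region (CHR) words TTTGAA and TTCGAA, and the word CCAAT of the box bound by NF-Y. An E2F word was present for 5 of 17 S phase genes (29.4%) and 1 of 19 mitosis genes (5.26%), against 2.16% of the 27025 genes in the promoter table. CCAAT was present for 11 S phase genes (64.7%) and 17 mitosis genes (89.5%), against 37.5% of all genes. A CHR word was present for 3 S phase genes (17.6%) and 7 mitosis genes (36.8%), against 19.6% of all genes. The same 3 and 7 genes also held CCAAT, and both words together were present in 7.0% of all genes. Most S phase promoters searched held no E2F word, and most mitosis promoters no CHR word. No test was made on these shares, and a match is a run of letters and not a measured binding site. The promoters of 2 S phase and 3 mitosis genes are shown because they hold these words, which is how they were chosen. They are Mcm5 at chr8:75109259-75109508 on the plus strand and, on the minus strand, Mcm6 at chr1:128359706-128359955, Ccnb2 at chr9:70421555-70421804, Top2a at chr11:99024190-99024439 and Mki67 at chr7:135716380-135716629. Each is written 5′ to 3′ towards the start of its gene, with E2F, CHR and CCAAT words of either strand in capitals.
Mcm5: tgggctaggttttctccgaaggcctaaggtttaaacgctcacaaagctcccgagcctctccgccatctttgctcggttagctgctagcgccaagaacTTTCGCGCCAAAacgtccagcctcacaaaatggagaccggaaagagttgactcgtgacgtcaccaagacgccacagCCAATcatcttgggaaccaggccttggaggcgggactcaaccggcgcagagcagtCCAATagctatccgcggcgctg
Mcm6: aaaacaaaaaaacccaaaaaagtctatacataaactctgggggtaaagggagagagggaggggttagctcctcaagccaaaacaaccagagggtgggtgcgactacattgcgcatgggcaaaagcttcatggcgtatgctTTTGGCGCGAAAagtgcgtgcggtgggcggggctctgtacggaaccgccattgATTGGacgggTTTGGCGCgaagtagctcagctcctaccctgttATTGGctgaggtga
Ccnb2: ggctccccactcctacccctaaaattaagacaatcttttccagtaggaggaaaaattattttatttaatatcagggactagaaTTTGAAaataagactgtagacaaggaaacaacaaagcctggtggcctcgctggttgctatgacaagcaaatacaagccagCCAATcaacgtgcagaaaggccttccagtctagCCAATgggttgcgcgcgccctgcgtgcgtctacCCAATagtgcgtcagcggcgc
Top2a: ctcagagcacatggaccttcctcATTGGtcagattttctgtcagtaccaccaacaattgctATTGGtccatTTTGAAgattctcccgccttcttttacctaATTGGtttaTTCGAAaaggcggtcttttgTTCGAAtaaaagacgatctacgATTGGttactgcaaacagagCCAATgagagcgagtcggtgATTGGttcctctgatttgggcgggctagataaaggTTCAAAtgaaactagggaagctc
Mki67: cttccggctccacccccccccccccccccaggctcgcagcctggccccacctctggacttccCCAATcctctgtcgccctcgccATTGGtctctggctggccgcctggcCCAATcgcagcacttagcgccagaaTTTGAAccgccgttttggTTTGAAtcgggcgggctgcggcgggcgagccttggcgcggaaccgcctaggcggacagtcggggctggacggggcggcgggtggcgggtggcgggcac
Mcm5 held 2 E2F words and Mcm6 held 3, of which 2 overlapped each other in each promoter, and neither held a CHR word. Top2a held 4 CHR words and 6 CCAAT words, Mki67 held 2 and 3, and Ccnb2 held 1 and 3, with no E2F word in any of these mitosis promoters.

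Total counts ran from 18071928 to 21165063 per library, so a floor of 3 counts lay between 0.142 and 0.166 CPM (counts scaled to a common library total), for counting error only. Il33 had 7, 0 and 9 counts in the WT libraries and 3, 8 and 2 in the KO libraries, too few to check the labels. The 9 T cell and Treg markers, Foxp3 among them, were present in every library and summed to 4502 to 5175 CPM in WT and 5371 to 5539 CPM in KO. The 14 B cell markers with a row were also present in every library. Their sum was 3614 CPM in WT replicate 1, 1701 CPM in replicate 2 and 2967 CPM in replicate 3, against 1318 to 1658 CPM in KO. Ighm alone gave 1447, 1061 and 1302 CPM of these sums in WT and 924, 1118 and 1017 CPM in KO. Its log2 fold change was -0.32, and those of the other B cell markers ran from -2.09 to -1.51, so the sums understate the difference in those markers. All 14 had negative log2 fold changes and 0 passed by edgeR, with 14 at an unadjusted p under 0.05, as were 2976 of the 13626 genes tested. The 4 plasma cell markers summed to 14.9 to 30.2 CPM in WT and 7.81 to 11.96 CPM in KO, with Tnfrsf17 at 0 in WT replicates 2 and 3 and KO replicate 6, and the 4 CD8 T and NK markers to 38.9 to 43.5 CPM in WT and 25.6 to 36.1 CPM in KO. Of all markers, 5 passed by edgeR. Of all genes tested, 886 of 13626 (6.50%) passed, a share that also stands beside the 0 of 14 B cell markers. Ctla4 of the Treg list rose by 0.53 on the log2 scale (adjusted p = 0.00220) and Cd68 of the myeloid list by 0.91 (adjusted p = 0.0104). Sdc1 of the plasma cell list fell by 0.96 (adjusted p = 0.00905) and Siglech of the myeloid and dendritic list by 1.27 (adjusted p = 0.0313). The 5 melanoma markers summed to 20.7 to 27.6 CPM in WT and 28.8 to 33.8 CPM in KO. Of these, Tyr, Dct and Tyrp1 were at 0 in all 6 libraries. Mlana had 0, 3 and 2 counts in WT and 2, 1 and 2 counts in KO. Pmel, the fifth marker that passed, rose in KO by 0.42 on the log2 scale (edgeR adjusted p = 0.0376). It gave nearly all of the melanoma sum. Its span on chromosome 10 overlaps that of Cdk2 on the other strand, and their reads may be mixed, because counting by strand is not stated. KO replicate 4 stood apart from the other 5 libraries in mitosis transcripts.

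Cell cycle transcripts differed more among the KO libraries than between the groups. The sum over the 23 mitosis genes was 1048 CPM in WT replicate 1, 1216 in replicate 2 and 1158 in replicate 3. It was 765 CPM in KO replicate 4, 1346 CPM in KO replicate 5 and 1118 CPM in KO replicate 6. KO replicate 4 was thus the lowest library, KO replicate 5 the highest, and KO replicate 6 lay within the WT range. For the 20 S phase genes the sum was 1575, 1748 and 1684 CPM in the WT libraries and 1550, 2082 and 1843 CPM in the KO libraries, so that KO replicate 4 was just below the lowest WT library while the other KO libraries were above the highest. As group values, the mitosis sum was 1141 ± 85.6 CPM in WT and 1076 ± 292 CPM in KO (SD, n = 3 each), and the S phase sum was 1669 ± 87.3 CPM in WT and 1825 ± 266 CPM in KO. Because the members were chosen with results of these data known, no test was made on these sums.

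**Figure D1:**
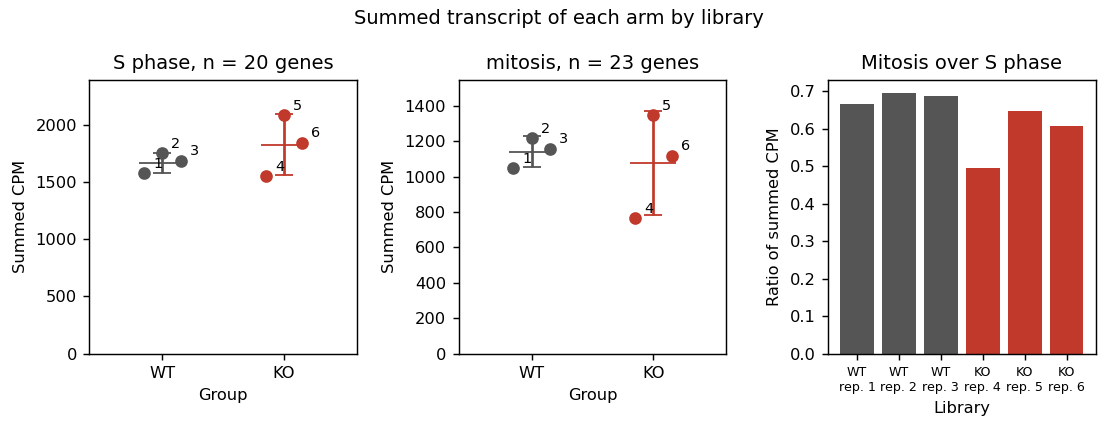
Summed CPM of the 20 S phase genes and the 23 mitosis genes by group, with 1 point per library labelled by its replicate number and the mean and SD of each group as bars, and the ratio of the mitosis sum to the S phase sum in each library. KO replicate 4 has the lowest mitosis sum, at 765 CPM, and the lowest ratio, at 0.494.

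The drop in KO replicate 4 was larger for mitosis than for S phase. Its mitosis sum was 0.671 of the WT mean and its S phase sum 0.929 of the WT mean. In KO replicate 5 both sums were above the WT mean, at 1.18-fold for mitosis and 1.25-fold for S phase. The ratio of the mitosis sum to the S phase sum was 0.665, 0.696 and 0.688 in WT replicates 1, 2 and 3 and 0.494, 0.646 and 0.607 in KO replicates 4, 5 and 6. All 3 WT values lay above all 3 KO values, by a margin that was small for KO replicate 5. Of all genes tested, 26.3% also had groups that did not overlap. The ratio was not tested, because its members were chosen with results of these data known.

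The order of the KO libraries was the same for every member. All 43 genes had their lowest KO value in replicate 4 and their highest in replicate 5, an order held by 17.0% of the 13626 genes tested across the transcriptome. KO replicate 4 was the lowest of all 6 libraries for 23 of 23 mitosis genes and 10 of 20 S phase genes, against 17.1% of all genes tested. KO replicate 5 was the highest of all 6 for 20 mitosis genes and 20 S phase genes, against 16.8% of all genes. The 3 mitosis genes with their highest value elsewhere were Mki67 and Cenpf, in WT replicate 2, and Cenpe, in WT replicate 3. These members share libraries and are not independent of each other, so the counts describe 3 KO libraries and not the genotype.

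**Figure D2:**
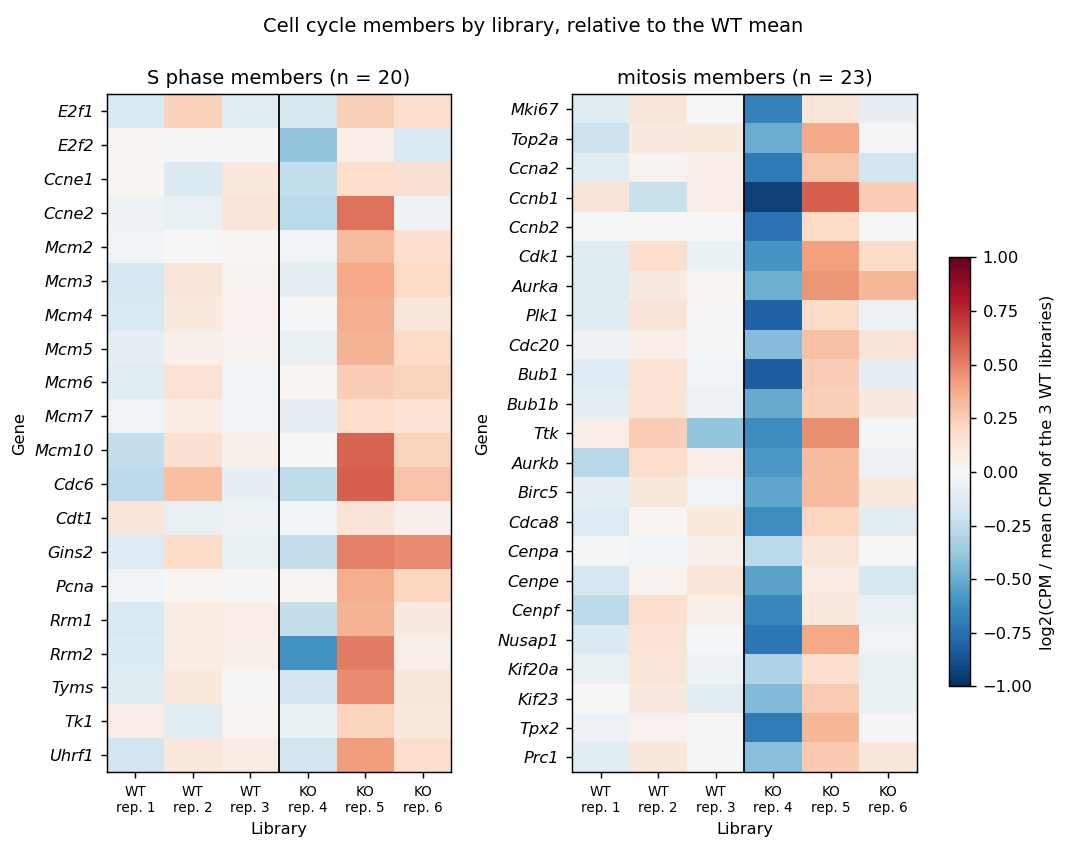
Log2 ratio of each member's CPM to the mean of the 3 WT libraries, with genes in rows and libraries in columns, blue for below and red for above the WT mean. The column of KO replicate 4 is blue for all 23 mitosis genes, with a mean of -0.59, and has a mean of -0.16 for S phase genes, where Rrm2 is deepest at -0.61 and Mcm6 and Pcna are just above the WT mean. The column of KO replicate 5 is red for all 43.

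The spread between replicates shows the same contrast gene by gene. The median coefficient of variation over the 3 libraries of a group was 8.38% in WT and 29.5% in KO for mitosis genes, and 8.19% in WT and 15.5% in KO for S phase genes. Over all genes with a value it was 7.35% in WT and 7.89% in KO. The KO value was the larger for 23 of 23 mitosis genes and 17 of 20 S phase genes, against 52.2% of all genes. Between KO replicates 4 and 5 the median absolute log2 ratio was 0.87 for mitosis genes and 0.44 for S phase genes, and 0.13 for all genes tested. Among WT libraries the widest pair, replicates 1 and 2, gave 0.21 for mitosis genes, 0.22 for S phase genes and 0.14 for all genes.

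Depth was enough to measure these ratios. From KO replicate 4 to KO replicate 5 the mitosis sum was 1.76-fold higher (95% exact counting interval 1.72 to 1.79) and the S phase sum 1.34-fold higher (1.32 to 1.36). Single members ran from 1.11-fold for Cdt1 to 2.88-fold for Ccnb1, with a median of 1.83-fold in mitosis and 1.35-fold in S phase. The counting interval lay above 1 for all 43 members and for 16.4% of all genes tested. The intervals cover counting error only, and they compare 2 libraries and not 2 conditions. KO replicates 4 and 5 also differed in B cell markers, at 1318 and 1658 CPM, and in the myeloid and dendritic markers, which summed to 40.7 and 62.9 CPM. The myeloid and dendritic sum was 43.2 to 62.0 CPM in WT and 49.4 CPM in KO replicate 6. Most of this sum in KO replicates 4 and 5 came from Lyz2, at 17.6 and 31.7 CPM, and Cd68, at 15.8 and 22.1 CPM. Itgax, at 2.34 and 1.57 CPM, and Siglech, at 0.86 and 0.81 CPM, went the other way. The 6 germinal centre B cell markers, a dividing population of nodes, summed to 21.02 and 22.1 CPM in KO replicates 4 and 5. They ran from 21.02 to 24.5 CPM over all 6 libraries, with Rgs13 at 0 in KO replicate 6. S1pr2 alone gave 13.2 to 15.5 CPM of these sums, so the sums say little about the other germinal centre markers. Its log2 fold change between groups was 0.02, and those of the other tested markers of this list ran from -0.67 to -0.13. Across the WT libraries B cell markers were lowest in replicate 2, where the sums of both arms were highest in WT. Across the KO libraries B cell markers were highest in replicate 5, where the sums of both arms were also highest. The part of these markers' cells in the cell cycle values was not tested.

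**Figure D3:**
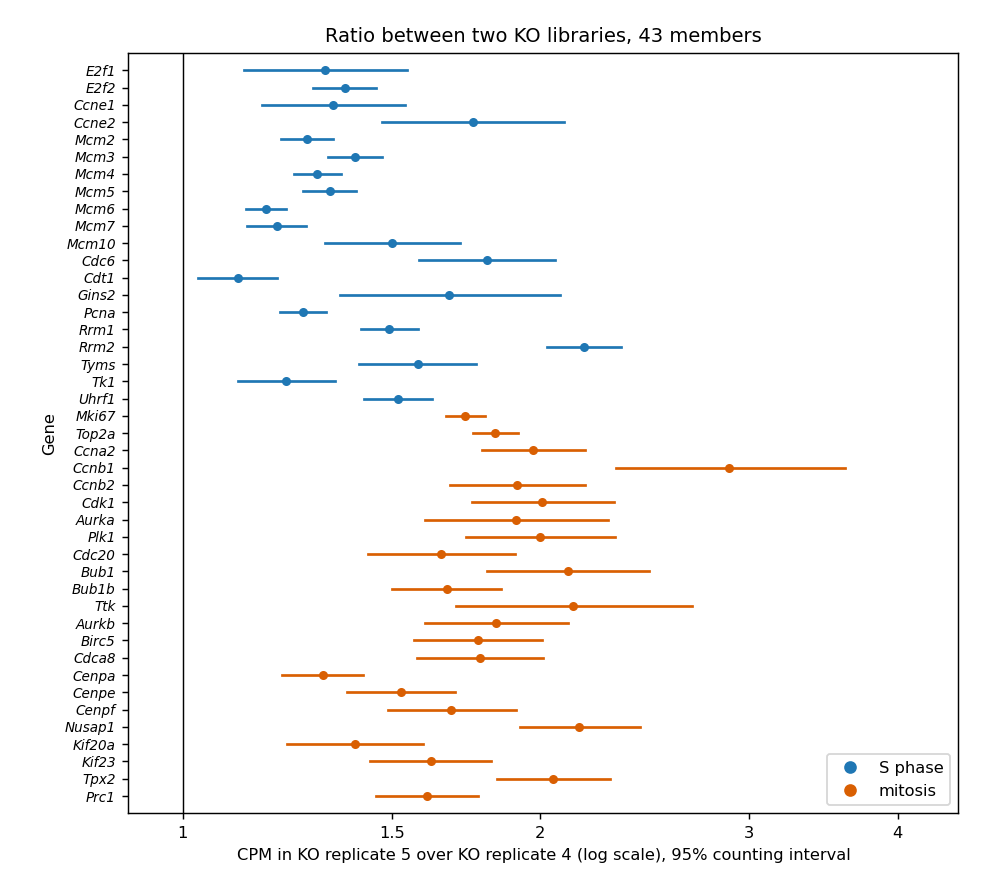
CPM in KO replicate 5 over CPM in KO replicate 4 for each member on a log axis, with points for the ratio and lines for the 95% counting interval, S phase genes in blue and mitosis genes in orange. All 43 intervals lie above 1, from 1.11-fold for Cdt1 to 2.88-fold for Ccnb1.

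Levels per length, in the authors' FPKM, put S phase genes above mitosis genes. The mean over 6 libraries ran from 2.15 to 81.6 FPKM with a median of 23.4 FPKM in S phase, and from 2.47 to 29.9 FPKM with a median of 7.80 FPKM in mitosis. Mcm6 was the most abundant member at 81.6 FPKM (71.2 to 91.5 over the libraries), followed by Pcna at 74.6 FPKM (67.9 to 89.3), and these ranges overlap. Mcm4, Mcm3, Mcm2 and Mcm5 followed at 47.3, 44.1, 42.0 and 40.2 FPKM, also with overlapping ranges. Mki67 was the highest mitosis gene at 29.9 FPKM (19.9 to 34.6), and the least abundant members were Ccnb1 at 2.47 FPKM and Gins2 at 2.15 FPKM.

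All 4 regulators of the G1/S transition were lowest in KO replicate 4 and highest in KO replicate 5. E2f1 and E2f2 encode activator E2F factors, and Ccne1 and Ccne2 encode the E cyclins that activate Cdk2. E2f2 (chromosome 4, 136172394 to 136196057, plus strand) had 115, 113 and 113 CPM in WT replicates 1, 2 and 3 and 86.6, 119 and 102 CPM in KO replicates 4, 5 and 6. The WT libraries lay close together and the KO libraries on both sides of them. Its log2 fold change of -0.15 (SE 0.10) did not pass, with an adjusted p of 0.438 in edgeR's quasi-likelihood test. Ccne2 had 11.3, 11.1 and 12.7 CPM in WT and 9.72, 17.1 and 11.3 CPM in KO. For the 4 genes the log2 fold changes between groups ran from -0.15 to 0.12.

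For the genes that license origins and open the helix, KO replicate 4 lay near the WT level and KO replicate 5 above it. Mcm2, Mcm3, Mcm4, Mcm5, Mcm6 and Mcm7 encode the ring of the replicative helicase, Cdc6 and Cdt1 load it, and Mcm10 and Gins2 act in its activation. Mcm6 (chromosome 1, 128331590 to 128359664 on the minus strand of GRCm38) had 207, 247 and 218 CPM in WT and 227, 266 and 262 CPM in KO replicates 4, 5 and 6. KO replicate 4 lay inside the WT range and the other KO libraries above it. Mcm2 had 132, 135 and 137 CPM in WT and 132, 168 and 150.2 CPM in KO, and Mcm5 had 123, 135 and 133 CPM in WT and 124, 165 and 149.7 CPM in KO. Cdc6 showed the widest swing of this role, with 16.9, 24.96 and 18.9 CPM in WT and 17.0, 30.7 and 24.7 CPM in KO. For the 10 genes KO replicate 4 lay between -0.25 and 0.02 on the log2 scale relative to the WT mean, and KO replicate 5 between 0.13 and 0.60. All 10 had a positive log2 fold change between groups, from 0.05 to 0.29, and 0 passed. Mcm6 was at 0.17 (SE 0.08, edgeR adjusted p = 0.234).

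Genes of DNA synthesis and nucleotide supply included the member with the smallest p. Pcna (chromosome 2, 132249162 to 132253314, minus strand), which encodes the sliding clamp of DNA polymerase, had 164, 169 and 168 CPM in WT and 170.3, 215 and 194 CPM in KO replicates 4, 5 and 6. Every KO library was above every WT library, although replicate 4 exceeded the highest WT value only slightly. Its log2 fold change was 0.21 (SE 0.07), with an unadjusted p of 0.0144 and an adjusted p of 0.119 in edgeR's quasi-likelihood test, so it did not pass. It was the only member whose groups did not overlap, while 26.3% of all genes tested had groups that did not overlap. Rrm2, the regulated subunit of ribonucleotide reductase, had 73.5, 85.2 and 83.7 CPM in WT and 52.997, 115 and 84.0 CPM in KO. Its 2.18-fold ratio between KO replicates 5 and 4 was the largest of the S phase genes and within the range of the mitosis genes. Rrm1, the large subunit, differed 1.49-fold between the same libraries. Tyms, which makes thymidylate, and Uhrf1, which keeps DNA methylation through replication, differed 1.58-fold and 1.52-fold. Tk1, the salvage kinase for thymidine, differed 1.22-fold.

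Mki67 and Top2a, the chromosome proteins most used to mark dividing cells, followed the mitosis pattern at high depth. Mki67 (chromosome 7, 135689784 to 135716361, minus strand) had 295, 349 and 319 CPM in WT and 201, 347 and 304 CPM in KO replicates 4, 5 and 6. KO replicate 4 was far below the WT range and the other KO libraries were inside it. Its log2 fold change of -0.18 (SE 0.23) had an edgeR adjusted p of 0.741. Top2a, which encodes topoisomerase II alpha, had 177, 218 and 220 CPM in WT and 145, 267 and 202 CPM in KO, with a log2 fold change of 0.00 (SE 0.26). For this gene a KO library stood on either side of the WT range.

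The cyclins and kinases that drive mitosis showed the widest swings. Ccnb1 encodes cyclin B1, the partner of Cdk1, and had 11.1, 8.63 and 10.6 CPM in WT and 5.29, 15.2 and 12.0 CPM in KO. At 2.88-fold (95% counting interval 2.32 to 3.61) it had the largest ratio between KO replicates 5 and 4 of all members. Ccnb2 (chromosome 9, 70407692 to 70421547, minus strand), another B cyclin, had 28.1, 28.1 and 28.1 CPM in WT and 16.9, 32.3 and 28.0 CPM in KO. The WT libraries were closer together than for any other member named here, and KO replicate 6 was at the same level. Aurka (chromosome 2, 172356190 to 172370535, minus strand), a kinase of the spindle poles, had 12.1, 13.9 and 13.4 CPM in WT and 9.34, 17.8 and 16.5 CPM in KO, the smallest p of this role (log2 fold change 0.15, SE 0.22, edgeR adjusted p = 0.765). Ccna2, Cdk1, Plk1 and Cdc20 differed 1.97-fold, 2.01-fold, 1.999-fold and 1.65-fold between KO replicates 5 and 4. Over the 7 genes of this role KO replicate 4 lay between -0.93 and -0.43 on the log2 scale relative to the WT mean.

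Genes of the spindle checkpoint and of the chromosomal passenger complex moved in the same order. Bub1b (chromosome 2, 118598211 to 118641591, plus strand), which encodes the checkpoint protein BubR1, had 36.2, 42.4 and 36.9 CPM in WT and 27.2, 45.3 and 40.9 CPM in KO replicates 4, 5 and 6. Cdca8 (chromosome 4, 124918465 to 124939311, minus strand), which encodes borealin of the passenger complex, had 27.6, 30.6 and 32.2 CPM in WT and 19.6, 34.9 and 28.0 CPM in KO. In both, KO replicate 4 was below and KO replicate 5 above all WT libraries. The checkpoint kinases Bub1 and Ttk differed 2.11-fold and 2.13-fold between KO replicates 5 and 4, and the passenger genes Aurkb and Birc5 1.84-fold and 1.77-fold. Log2 fold changes between groups in this role ran from -0.15 to 0.01.

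The 3 centromere genes differed between 1.31-fold and 1.68-fold between KO replicates 5 and 4. Cenpa (chromosome 5, 30666777 to 30674830, plus strand), the histone H3 variant that marks centromeres, had 64.1, 63.3 and 67.5 CPM in WT and 53.9, 70.7 and 64.8 CPM in KO. Its ratio of 1.31-fold between KO replicates 5 and 4 was the smallest of the 23 mitosis genes. Cenpe (chromosome 3, 135212537 to 135273611, plus strand), a kinetochore motor, had 36.4, 42.0 and 44.4 CPM in WT and 28.3, 43.2 and 36.6 CPM in KO, with a group difference of -0.18 on the log2 scale (SE 0.15), the lowest of the 43, at an adjusted p of 0.569 by edgeR. Cenpf differed 1.68-fold between KO replicates 5 and 4.

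The genes of the spindle and of cytokinesis were again lowest in KO replicate 4. Kif23 (chromosome 9, 61915905 to 61946774, minus strand), a motor of the central spindle, had 30.0, 32.0 and 27.9 CPM in WT and 22.1, 35.7 and 28.7 CPM in KO. Kif20a, a motor of cytokinesis, had 22.1, 25.3 and 22.5 CPM in WT and 18.8, 26.2 and 22.1 CPM in KO. For both, KO replicate 6 lay at the level of the WT libraries. Nusap1 and Tpx2, which bind spindle microtubules, differed 2.16-fold and 2.05-fold between KO replicates 5 and 4, and Prc1, which bundles them at the midzone, differed 1.61-fold.

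Between the groups, 0 of 43 members passed in either direction. This count stands beside 886 of 13626 genes (6.50%) with an edgeR adjusted p under 0.05, with 3.68% of all genes higher and 2.83% lower in KO. At an unadjusted p under 0.05 there was 1 member, Pcna, beside 2976 of the 13626 genes tested. DESeq2 and limma-voom also called 0 members, with lowest adjusted p-values of 0.0946 and 0.163, both for Pcna. The 20 S phase genes had a median log2 fold change of 0.16, and 19 of them were positive. The 23 mitosis genes had a median of -0.06, with 7 positive and 16 negative. All genes tested had a median of 0.00. The median standard error was 0.13 for S phase genes, 0.23 for mitosis genes and 0.10 for all genes.

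**Figure D4:**
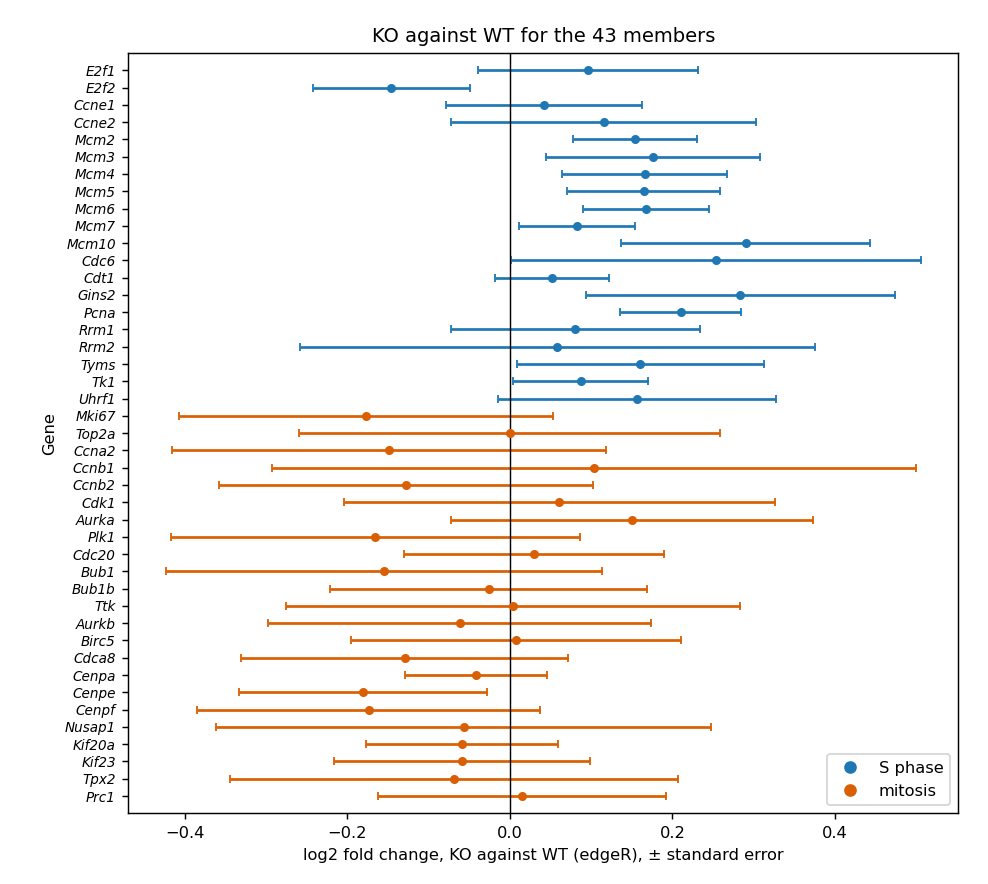
Log2 fold change of KO against WT for the 43 members with its standard error, S phase genes in blue and mitosis genes in orange. S phase points lie mostly right of 0 with a median of 0.16, mitosis points lie around 0 with wide bars, and 0 of 43 passed.

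The direction of the mitosis genes depended on the libraries in the fit, most of all on KO replicates 4 and 5. Without KO replicate 4, 22 of 23 mitosis genes were higher in KO, with a median log2 fold change of 0.14, and without KO replicate 5 all 23 were lower, with a median of -0.29. In neither fit did a mitosis gene pass. All 43 members had their lowest KO value in replicate 4 and their highest in replicate 5. Leaving out replicate 4 therefore raises the KO mean of each member, and leaving out replicate 5 lowers it. The median of S phase genes was 0.26 without KO replicate 4 and 0.03 without KO replicate 5. Without KO replicate 4, Mcm2, Mcm5 and Pcna passed with higher values in KO, where 5.49% of all genes tested passed. Their log2 fold changes were then 0.24, 0.27 and 0.29, with edgeR adjusted p-values of 0.0454, 0.0353 and 0.0160. KO replicate 4 stands out by these same values, so the calls made without it are not separate support for a group difference. Pcna also passed without a filter on low counts (edgeR adjusted p = 0.0173), a setting in which 6.83% of all genes passed. The mitosis median was -0.10, 0.01 and -0.06 without WT replicates 1, 2 and 3. Without WT replicate 2, 12 mitosis genes were positive and 11 negative, against 7 and 16 with all libraries.

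**Figure D5:**
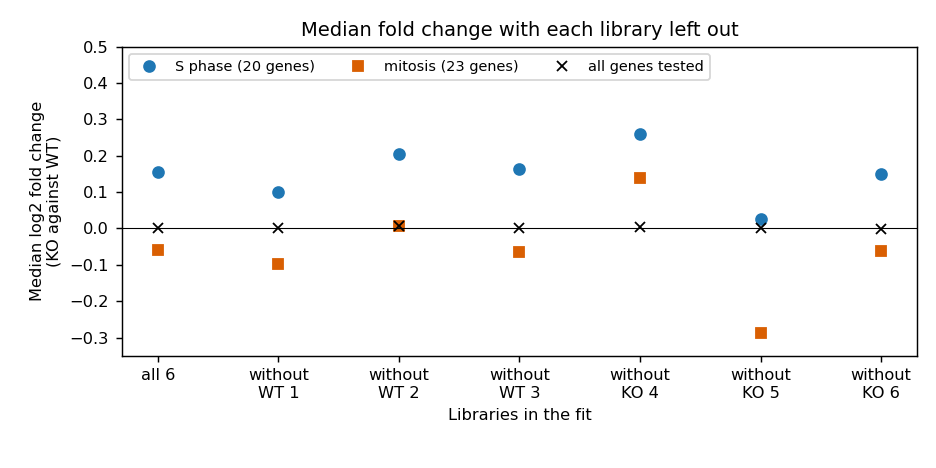
Median log2 fold change of S phase genes, mitosis genes and all genes tested, with all 6 libraries and with each library left out. The mitosis median moves to 0.14 without KO replicate 4 and to -0.29 without KO replicate 5, while the median of all genes stays near 0.

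Other genes of the cell cycle, listed by textbook role, mostly followed the same order of libraries. Of 35 further G2/M genes, KO replicate 4 was the lowest library for 26, KO replicate 5 was above KO replicate 4 for 34, and the median ratio between them was 1.73-fold. Of 30 further S phase genes, KO replicate 4 was the lowest for 9, KO replicate 5 was above it for 29, and the median ratio was 1.26-fold. Over all genes tested, KO replicate 4 was the lowest library for 17.1%, KO replicate 5 was above it for 49.3%, and the median ratio was 0.9996. Between groups 0 genes of either list passed by edgeR's quasi-likelihood test (4 and 0 at an unadjusted p under 0.05 for S phase and G2/M, beside 2976 of 13626 genes tested), by DESeq2 or by limma-voom, beside 6.50% of all genes. The further S phase genes had a median log2 fold change of 0.15, with 28 of 30 positive, and the further G2/M genes one of -0.04. Rpa2, a subunit of the single-strand binding protein RPA, had 43.001, 42.6 and 44.3 CPM in WT and 45.0, 56.6 and 52.97 CPM in KO (log2 fold change 0.25, SE 0.08, edgeR adjusted p = 0.0880). Nasp, a histone chaperone, was at 0.23 (SE 0.08, edgeR adjusted p = 0.130). Of the G2/M list, Cks2 was at 0.27 (SE 0.17) and G2e3 at -0.15 (SE 0.09).

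Among the lists of cell cycle regulators, 1 gene passed. The lists in this paragraph stand beside 6.50% of all genes called and 2976 of 13626 at an unadjusted p under 0.05. Of 7 CDK inhibitor genes 1 rose and 0 fell. Cdkn1a, which encodes p21, rose from 4.27, 5.82 and 4.54 CPM in WT to 9.29, 12.6 and 9.90 CPM in KO replicates 4, 5 and 6, which is 1.12 on the log2 scale (SE 0.17), with an adjusted p of 0.00212 by edgeR. Its groups did not overlap, which held for 26.3% of all genes tested, and its highest value was in KO replicate 5, the library with the highest cell cycle sums. Cdkn1b, which encodes p27, had 295, 305 and 292 CPM in WT and 323, 308 and 313 CPM in KO and did not pass. None of 6 G1 cyclin and kinase genes passed, by edgeR, DESeq2 or limma-voom, with 1 of them at an unadjusted edgeR p under 0.05. Cdk4 was at 0.13 (SE 0.06) and Cdk2 at -0.13 (SE 0.07) on the log2 scale. Of 17 genes of the RB, E2F and DREAM group 0 passed by the same tools, with 1 at an unadjusted p under 0.05. Rbl2, which encodes the DREAM pocket protein p130, was at -0.12 (SE 0.05, edgeR adjusted p = 0.207), and E2f3 at 0.18 (SE 0.08). Of 12 ubiquitin ligase and securin genes 0 passed by these tools and 0 had an unadjusted p under 0.05, with Pttg1, which encodes securin, at 0.17 (SE 0.09) and Anapc2 at -0.10 (SE 0.06).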

How the data were processed

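RNA sequencing of 6 libraries, 3 WT and 3 KO, was analysed from 3 tables. Raw counts by Ensembl identifier, and by symbol normalized counts (a signal) and FPKM values, were deposited by the authors. STAR 2.4.2a, bcl2fastq and DESeq2 are named with GRCm38, per the submitters' processing notes. Not given in the sources used here: how reads were counted, with which annotation, and whether by strand, so reads of overlapping genes may be mixed. Symbols came from a table that matched 35412 of 37187 identifiers. For all 43 members the raw counts were the normalized counts times 1 factor per library, within 1e-06.

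The main test was the two-sided quasi-likelihood test of edgeR 4.0.16 (R 4.3.3) on genes kept by filterByExpr, with TMM scaling and robust dispersion, with Benjamini-Hochberg adjustment over 13626 genes and a threshold of 0.05. CPM used the TMM factors, and standard errors came from the F statistic. Alternatives were DESeq2 1.42.0, limma-voom (limma 3.58.1), RLE and upper-quartile factors, other filters, a fit without robust estimation, limma on log2 of the FPKM and normalized counts (values of at least 10 normalized counts in 3 libraries), and leaving out each library. The test was tried on simulated data. No pair of libraries within a group agreed within sampling noise (chi-square over degrees of freedom of 5.16 to 14.6). The members, roles and lists were chosen with earlier results of these data known. Values are given in full for members that passed and, in each role, for the member with the highest FPKM and the one with the smallest p. Of each other cell cycle list up to 4 genes that passed, or else 2 with the smallest p, are named. Cell type markers are given by sums, with those that passed or were at 0. Further genes, Cdkn1b among them, were named after their values were seen.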

Additional observations from a re-analysis of the deposited data

How the results depend on the processing

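With 10 other tests, scalings and filters and with each library left out, the count of mitosis genes that passed stayed at 0 in each direction, and no S phase gene was called lower in KO. The count of S phase genes higher in KO was 0 with all libraries, 1 without a filter on low counts and 0 to 3 with 1 library left out, the 3 being without KO replicate 4. The other cell cycle genes higher in KO numbered 1, 4 without a filter and 1 to 5 with 1 library left out, with 5 without KO replicate 4 (Dtl, Rpa2, Nasp, Gmnn and Cdkn1a). The ratio of KO replicate 5 to KO replicate 4 was 1.42 for S phase and 1.83 for mitosis genes from mean log2 CPM, against 1.34 and 1.76 from sums. It was 1.37 for S phase genes without Mcm6. By limma-voom 21 of 23 mitosis genes were negative, against 16 by edgeR. The share of all genes called, 6.50% with all libraries, ran from 2.63% without WT replicate 3 to 9.73% without WT replicate 2, and was 2.77% by limma on log2(FPKM + 1). No paired analysis was possible because the groups share no replicate number. With 3 libraries a group, KO replicate 4 against the other libraries has no replicate check.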

Other observations

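All genes with a mean of at least 10 CPM, members included, were ranked by the ratio of KO replicate 5 to KO replicate 4, a ranking chosen after the data were seen, which compares 2 libraries and has no test. These 8929 genes included 41 members and 92 further cell cycle genes of the lists. The 50 with the largest ratio held 13 members, 15 further cell cycle genes of the lists, 1 cell type marker (Lyz2) and 21 genes on no list. The 50 with the smallest ratio held 0 of these cell cycle genes. At the top stood Kif18b, a mitotic kinesin, with 16.3, 15.3 and 14.997 CPM in WT and 7.34, 23.7 and 14.4 CPM in KO replicates 4, 5 and 6. The 21 genes on no list were not sorted by function, so they are not all outside the cell cycle. Kif18b is among them, as are Cep55, Kif22, Spag5, Kif4, Ncapg, Gzmb, Lgals3 and Cebpa. A low value in KO replicate 4 follows from this ranking.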
